A study of Mus musculus with 24 samples.

Results

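Neural progenitor cells (NPC) carrying the Q20 allele of the huntingtin gene Htt were compared with all other NPC lines of the same study by small RNA sequencing. The Q20 NPC make up 2 of the 24 libraries, chosen by their labels alone, and they were set against the 10 other NPC libraries of 5 genotypes. Those were Htt knockout (KO), Htt wild type (WT) and knock-in lines named Q50, Q92 (89 repeats in the growth protocol) and Q111, with 2 libraries each. Per the labels, the knock-in lines are heterozygous mouse embryonic stem cells (mESC) whose alleles differ in CAG repeat number, so each keeps another Htt allele, and they were grown with leukemia inhibitory factor on mouse embryonic fibroblast feeders. NPC were obtained from mESC plated on gelatin in N2B27 medium, then expanded on laminin with FGF and EGF. Each repeat length is represented by 1 line, so genotype and line cannot be told apart, and the origin of the KO and WT lines is not given in the sources used here. The design text calls the replicates biological samples, but nothing says they were separate differentiations, so the spread within a line may be technical. The main test took the other lines as 1 class, so its p-values measure the spread between libraries, within and among those lines. Libraries were treated as independent in it, although the within-line correlation was 0.453.

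Mouse ES cells transcribe the microRNA cluster Mir290 to Mir295 at very high level. The cluster Mir302 to Mir367 belongs to early embryonic cells. Many members of both pair with targets through a shared seed near the 5′ end and promote rapid cell division. As ES cells become neural progenitors these clusters are normally shut off, while the neural microRNAs miR-9 and miR-181 and the let-7 family, which holds back the stem cell program, appear. The imprinted Dlk1-Dio3 region makes long noncoding RNAs (Meg3, Rian, Mirg), a snoRNA array and many microRNAs from the maternal chromosome, and its activity is known to vary among mouse stem cell lines.

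The Q20 NPC libraries held 480733 and 542008 gene counts, within the range of 342022 to 682113 over all 12 NPC libraries. Small nucleolar RNAs (snoRNAs, which guide modification of other RNAs) took 51.7% and 52.7% of the Q20 counts (42.2% to 62.6% in the other NPC) and the Y RNA Rny1 took 26.7% and 24.7% (13.0% to 40.3%). Genes with microRNA symbols took 0.120% and 0.124% (0.0582% to 0.159%), so most microRNA values rest on few counts. Counts of Htt itself were 6 and 2 for Q20, 9 and 2 for WT and 1 and 1 for KO, too few to check the genotype labels.

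Sequences of microRNAs are shown first, because several ES cell microRNAs counted in Q20 NPC share a seed. In the mature sequences from RefSeq (GRCm38.p6), 5′ to 3′, capitals mark the seed, bases 2 to 8. Counts were made per gene, so which arm of a hairpin was sequenced is not known. The first 4 sequences printed, from the Mir302 and Mir290 clusters, carry the seed AAGUGCU, while miR-293-3p has another. Of these genes only Mir302b and Mir293 were tested. The others rest on very few Q20 counts: Mir302d on 1 and 1, Mir291a on 1 and 1, and Mir295 on 2 and 1.

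miR-302b-3p (chr3:127545275-127545297, plus strand): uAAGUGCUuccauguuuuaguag
miR-302d-3p (chr3:127545665-127545687, plus strand): uAAGUGCUuccauguuugagugu
miR-291a-3p (chr7:3218968-3218989, plus strand): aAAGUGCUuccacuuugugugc
miR-295-3p (chr7:3220815-3220837, plus strand): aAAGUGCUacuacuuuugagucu
miR-293-3p (chr7:3220390-3220411, plus strand): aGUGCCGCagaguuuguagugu

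The microRNAs lower in Q20 NPC have 4 different seeds, shown here on the 5p arms.

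miR-9-5p (chr3:88215613-88215635, plus strand): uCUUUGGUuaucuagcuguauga
miR-16-5p (chr14:61631936-61631957, minus strand): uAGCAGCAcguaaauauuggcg
let-7c-5p (chr16:77599672-77599693, plus strand): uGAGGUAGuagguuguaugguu
miR-181a-5p (chr1:137966468-137966490, plus strand): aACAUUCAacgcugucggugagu

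Few genes separated Q20 NPC from the other NPC lines. Higher in Q20 NPC were 2 ES cell microRNAs and all 11 tested genes of the Dlk1-Dio3 region, while 2 neural microRNAs, a let-7 gene and the progenitor genes Tnc and Olig2 were lower. None of the lower calls held with line as a correlated block in limma, where adjusted p lay between 0.401 and 0.598. Of 441 genes tested with edgeR's quasi-likelihood test, 24 (5.44%) differed at a Benjamini-Hochberg adjusted p under 0.05, 18 of them higher (4.08%) and 6 lower (1.36%) in Q20 NPC. In bulk RNA, more cells of a type and more RNA per cell cannot be told apart. Each of the 24 genes had both Q20 libraries outside the range of all 10 others, which held for 41 tested genes above it (9.30%) and 18 below it (4.08%). The median log2 difference over all 441 genes was 0.02. The filter on low counts needs 2 libraries at 22.3 CPM (counts per 1e+06 counts of the scaled library), and 12 of the 24 genes reached that level in fewer than 2 of the other NPC libraries. These genes were tested only because they were high in Q20 NPC. The count of called genes was 15 without Q20 replicate 2, 41 without both Q92 libraries, 15 with line as a correlated block in limma, 80 with 1 mean per line, 55 with no filter and 13 with a filter on the mean count.

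**Figure D1:**
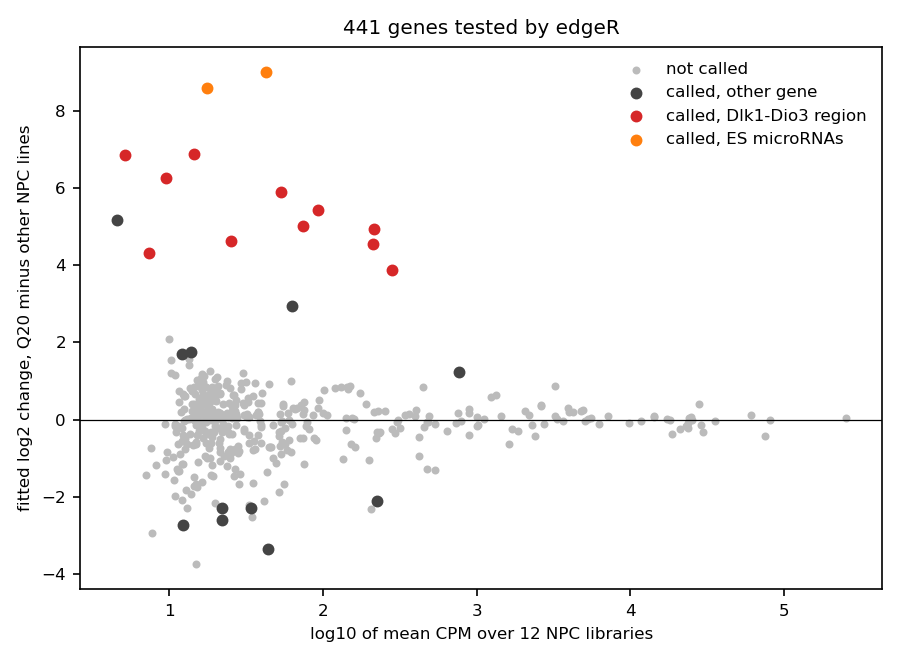
Fitted log2 difference, Q20 NPC minus the other NPC lines, for 441 tested genes against the log10 of their mean CPM over 12 NPC libraries. Grey points were not called, and colours give the kind of each of the 24 called genes. The cloud is centred on 0, with the Dlk1-Dio3 region and the ES cell microRNAs standing above it.

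Over all tested genes the Q20 libraries were about as far from the other lines as those were from each other. The median absolute log2 difference between 2 libraries (CPM plus a pseudocount of 1, tested genes) was 0.322 between the Q20 replicates, and 0.278 to 0.505 within the other lines. Between a Q20 library and one of another line it had a median of 0.633 (0.467 to 0.751, 20 pairs), and between 2 other lines 0.606 (0.395 to 0.751, 40 pairs). The ranges overlapped almost wholly.

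**Figure D2:**
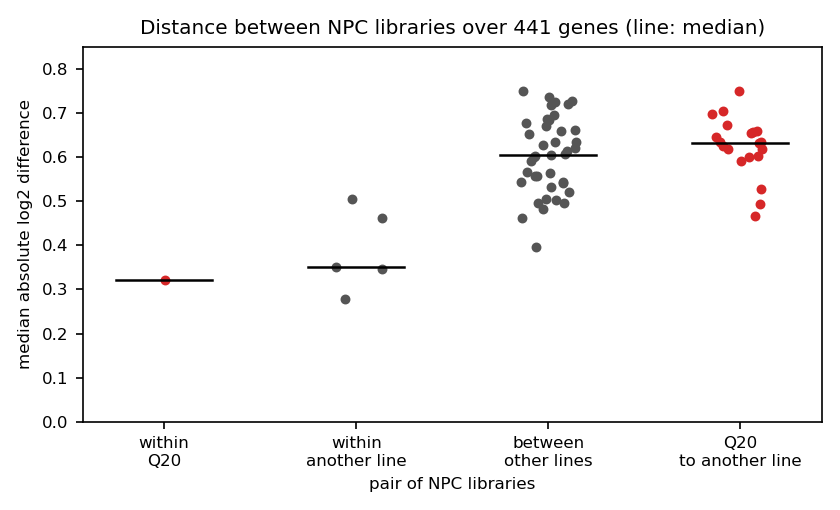
Median absolute log2 difference over the tested genes for each pair of NPC libraries, in 4 kinds of pair. Each point is a pair, and pairs share libraries. Pairs of Q20 with another line (0.467 to 0.751) lie in the range of pairs of other lines (0.395 to 0.751).

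Within NPC, the ES cell microRNAs were counted almost only in the Q20 libraries. Mir302b, on chromosome 3 (127545228 to 127545301, GRCm38) in an intron of Larp7 on the other strand, had 123 and 138 Q20 counts and 1 count in the 10 remaining NPC libraries together. This was 261 and 252 CPM against 0 in 9 of the others, and the gene belongs to the Mir302 cluster of early embryonic cells. The pooled rate was 1148-fold higher (95% exact interval 204 to 45502, counting error only), with an adjusted p of 3.15e-12 (edgeR). Mir293, of the Mir290 cluster on chromosome 7 (3220343 to 3220422), had 51 and 56 counts in the Q20 libraries and 0 in every other NPC library. It was at least 157-fold higher, taking 3 counts over the group as the floor (adjusted p = 4.44e-07, edgeR). An Nlrp12 exon lies over it on the other strand, and use of strand in counting is not given in the sources used here.

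The less abundant cluster members followed the same pattern but were below the level for testing. Of 14 genes in the ES cell microRNA list, 11 had a count in Q20 NPC and 1 had a count in any other NPC library. The list held 201 and 233 counts in Q20 NPC. Mir292 had 9 and 19, Mir367 had 8 and 8, and Mir302a had 2 and 5, all with 0 in the other 10 libraries. Mir302b and Mir293 were the 2 members tested, and both passed the filter on low counts only through Q20 NPC, so their direction was set by the filter. The Mir106a-363 cluster, whose miR-106a and miR-20b promote proliferation, showed Mir106a at 7 and 10 counts and Mir20b at 5 and 8, again with 0 elsewhere in NPC. With its Mir17-92 and Mir106b relatives this list of 15 summed to 42.4 and 45.7 CPM in Q20 NPC against 1.99 to 13.7, with a median of 5.41, in the others, and no member had enough counts to be tested.

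**Figure D3:**
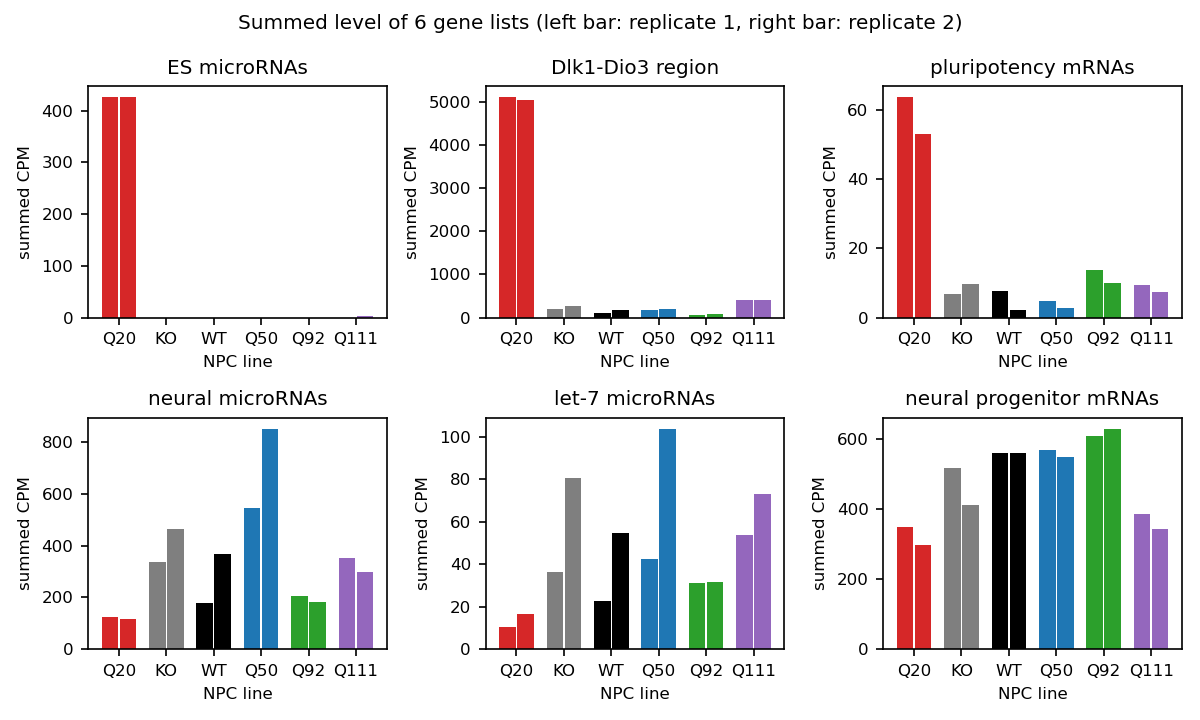
Summed CPM of 6 gene lists in each NPC library, by line, with the left bar replicate 1 and the right bar replicate 2. The ES microRNA list stands at 426.2 and 425.5 CPM in Q20 and at most 2.44 elsewhere, and the neural microRNA list is lowest in Q20 (125 and 115 CPM).

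Messenger RNA fragments of pluripotency genes were few in every NPC library, and their sum was higher in Q20. By gene, the pooled rate was higher in Q20 NPC for 10 and lower for 5. The 28 genes summed to 63.6 and 53.0 CPM in Q20 NPC against 2.19 to 13.7 in the others, from 30 and 29 counts, and none reached the level for testing. Trim71 (6 and 8) and Rif1 (8 and 4) had the most Q20 counts, and they had 9 and 15 counts in the other NPC libraries together. Lin28a, an RNA-binding inhibitor of let-7 maturation, had 5 and 6 counts and 0 in the other libraries. Dnmt3b, a de novo DNA methyltransferase, had 4 and 4, and Pou5f1, the core pluripotency factor Oct4, had 1 and 1, with 0 elsewhere in NPC. The naive-state genes Klf2, Klf4, Klf5 and Esrrb had 0 counts in Q20 NPC, where 3 counts would be 6.36 and 5.48 CPM. Each of them had 2 counts in the other NPC libraries together. Nanog and Zfp42 had 0 counts in all 12 NPC libraries. Igf2bp1, which encodes an embryonic RNA-binding protein and was chosen after its values were seen, had 11 and 15 counts in Q20 against 2 in all others together. Its pooled rate was 57.2-fold higher (95% exact interval 14.3 to 497, adjusted p = 7.27e-05, edgeR). Igf2bp1 passed the filter on low counts only through Q20 NPC, so its direction was set by the filter. An exon of Mir3063 overlaps it.

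The Dlk1-Dio3 region was also far more abundant. Its genes between Meg3 and Mirg, both included (chromosome 12, 109541001 to 109749460, GRCm38), summed to 5116 and 5055 CPM in Q20 NPC, against 62.4 to 409.9 with a median of 189 in the others. Both Q20 libraries lay above the highest other library, a Q111 one. Among 98 annotated genes, 39 had a count in Q20 NPC and 20 in the others. All 11 tested were higher in Q20 NPC, and 7 of these passed the filter on low counts only through Q20 NPC, which leaves Rian, AF357341, AF357428 and Gm22981.

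Rian (109603940 to 109661716), the long noncoding RNA in the middle of the region, stood at 1274 and 1236 CPM in Q20 NPC. In the others it lay between 21.5 and 137.8 CPM, with a median of 94.8. The difference was 3.88 ± 0.36 on the log2 scale (SE, adjusted p = 5.39e-08, edgeR). Exons of 9 other genes, many of them small RNAs, overlap Rian, so its counts may hold reads of those. Its neighbours were sparse, with Meg3 at 2 and 2 Q20 counts and 1 in the others, and Mirg, the microRNA host, at 7 and 12 against 4. Dlk1, the paternally expressed Notch ligand relative beside the region, had 0 counts in Q20 and 2 in the others.

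The snoRNAs carried most of the region's signal and all 8 that had a count in NPC were higher in Q20. They are box C/D snoRNAs, the class that guides ribose methylation, though the targets of this array are not known. Their sequences show how alike the copies are, which limits how well reads can be assigned. In these GENCODE M21 transcripts (GRCm38), 5′ to 3′, capitals mark TGATGA, a form of the C box, and CTGA, the D box, searched on the transcript strand.

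AF357428 (chr12:109679945-109680013, plus strand): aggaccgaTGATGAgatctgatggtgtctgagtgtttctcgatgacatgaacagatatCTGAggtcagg
AF357341 (chr12:109681519-109681593, plus strand): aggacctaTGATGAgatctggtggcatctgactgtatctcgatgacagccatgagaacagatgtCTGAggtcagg
Gm22981 (chr12:109682384-109682458, plus strand): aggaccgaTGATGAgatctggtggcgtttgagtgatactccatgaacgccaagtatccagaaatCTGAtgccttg
Gm23736 (chr12:109680800-109680874, plus strand): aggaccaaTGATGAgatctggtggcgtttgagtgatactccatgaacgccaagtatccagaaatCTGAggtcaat
Gm25856 (chr12:109682994-109683068, plus strand): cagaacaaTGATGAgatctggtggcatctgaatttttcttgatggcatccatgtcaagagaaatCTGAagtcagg

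TGATGA followed by CTGA was found in 10 of the 10 snoRNAs higher in Q20 NPC and in 24.0% of 1507 annotated snoRNA genes, which include the box H/ACA class. Gm22981 and Gm23736 share 69.6% of their 30-base stretches, so their counts are uncertain. AF357341 and AF357428 match at 82.7% of 75 aligned positions and share none of these stretches.

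AF357341 had 1149 and 1079 CPM in Q20 NPC against 7.06 to 107 in the other libraries (median 23.3). AF357428 had 1088 and 1006 CPM against 13.9 to 120 (median 23.2). For both, the highest other libraries were the Q111 ones. The log2 differences were 4.95 ± 0.49 (adjusted p = 1.52e-07) and 4.55 ± 0.50 (adjusted p = 4.44e-07, both SE and edgeR). Gm22981 had 452 and 550 CPM against 1.53 to 29.3 (log2 5.43 ± 0.46, adjusted p = 1.24e-08, edgeR). Gm25856 had 303 and 290 CPM against 0 to 14.6 (log2 5.88 ± 0.49, adjusted p = 1.24e-08, edgeR). Gm23787 and Gm25854 differed by 5.02 ± 0.42 and 4.64 ± 0.49 on the log2 scale. Gm24564 and Gm23736 were low, with 32 and 23 counts against 2, and 18 and 19 against 7. All 8 of the region's 23 annotated snoRNAs that had a count were thus higher, with no overlap between Q20 and the other lines. For 5 of the 8 the direction was set by the filter, which they passed only through Q20 NPC. Over all 441 tested genes, 41 (9.30%) had both Q20 libraries above all others.

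**Figure D4:**
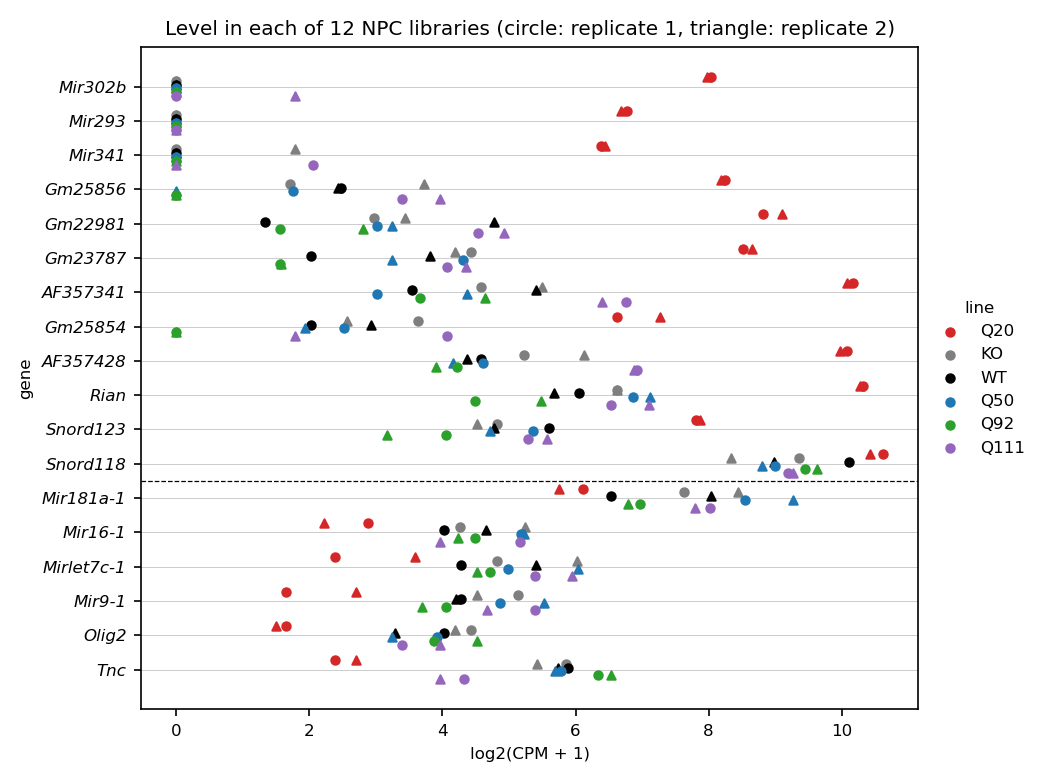
Level of each named gene in the 12 NPC libraries as log2(CPM + 1), coloured by line, with circles for replicate 1 and triangles for replicate 2. Genes were named only if both Q20 points lay outside all others, so these lie to the right for genes called higher and to the left for those called lower.

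The region's microRNAs showed the same direction at low counts. Of 60 in the annotation, 26 had a count in Q20 NPC and 9 in the other libraries. Mir341 (109611500 to 109611595, inside Rian) had 39 and 47 counts against 2, a rate 189-fold higher (95% exact interval 50.8 to 1586, adjusted p = 1.16e-08, edgeR). Mir409 (109743158 to 109743236, inside Mirg) had 12 and 20 counts against 0, at least 46.9-fold higher with a floor of 3 counts over the group (adjusted p = 0.000573, edgeR). Both genes passed the filter on low counts only through Q20 NPC, so their direction was set by the filter. Their 3p arms have unrelated seeds.

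miR-341-3p (chr12:109611556-109611576, plus strand): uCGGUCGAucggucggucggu
miR-409-3p (chr12:109743204-109743225, plus strand): gAAUGUUGcucggugaaccccu

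A list of 29 imprinted genes was mostly from elsewhere but held Dlk1, Rtl1 and Dio3, and it did not hold Zdbf2. Of these 29, 4 were tested, with 0 called by edgeR, DESeq2 or limma and 1 at an unadjusted p under 0.05. Peg10, a retrotransposon-derived gene, had 53.0 and 49.3 CPM in Q20 NPC against 3.06 to 91.5 in the others. Peg3, a zinc finger gene, had 27.6 and 29.2 CPM against 0 to 17.6 without overlap (log2 2.09 ± 0.65), and its adjusted p was 0.0739 (edgeR).

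Outside the region, 2 of 41 tested Snord genes were higher in Q20 NPC, a share near the 4.08% of all tested genes. Snord123 (chromosome 15, 32241853 to 32241923, minus strand, within Snhg18) had 223 and 234 CPM in Q20 NPC. It had 7.96 to 47.4 CPM in the others, with a median of 26.8 (log2 2.94 ± 0.36, adjusted p = 2.93e-06, edgeR). Snord118, the U8 RNA needed for maturation of the large ribosomal subunit RNAs (chromosome 11, 69073427 to 69073561), had 1577 and 1379 CPM against 323 to 1101. Its log2 difference was 1.24 ± 0.30 (adjusted p = 0.0111, edgeR), and 33.0% of its 30-base stretches also occur in Gm24208. With library line as a correlated block in limma the adjusted p of Snord118 was 0.0917. The genes for the splicing factor Prpf8 (log2 1.76) and the chaperonin subunit Cct4 (log2 1.71), both chosen after their values were seen, had adjusted p of 0.0323 and 0.0342 in edgeR. With the line block in limma these were 0.127 and 0.0844, and both genes passed the filter only through Q20 NPC.

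In the list of neural progenitor mRNAs, Tnc and Olig2 were lower in Q20 NPC, and both calls were lost with line as a correlated block in limma (adjusted p = 0.401 for each). Tnc, a matrix glycoprotein of radial glia (chromosome 4, 63959785 to 64047015, minus strand), had 4.24 and 5.48 CPM in Q20 NPC. It had 14.6 to 91.5 CPM in the others with a median of 53.3, the lowest being the Q111 libraries (log2 -3.35 ± 0.70, adjusted p = 0.00290, edgeR). Olig2, a transcription factor of ventral progenitors and the oligodendrocyte lineage, had 1 and 1 Q20 counts and 66 in the others. The rate in the others was 7.50-fold that in Q20 NPC (95% exact interval 2.00 to 63.3, adjusted p = 0.0284, edgeR). Of 14 tested neural progenitor genes, edgeR called these 2 lower, beside 1.36% of all tested genes, and none higher. DESeq2 called 1 of the 14, and Olig2 had an adjusted p of 0.110 there. Over the 14 the median log2 difference was -0.93, with 12 below 0, against 214 of 441 below 0 and a median of 0.02 over all tested genes. Over the whole list of 29, the pooled rate was lower in Q20 NPC for 18 and higher for 11. The ES cell microRNA and pluripotency lists were higher in the same 2 libraries, as given above, and their part in the lower values was not tested. An exon of 8030451A03Rik overlaps Tnc on the other strand.

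The other progenitor genes overlapped or missed the threshold. Slc1a3, a glial glutamate transporter, had 42.4 and 32.9 CPM in Q20 NPC against 42.4 to 195 (adjusted p = 0.195, edgeR). Fabp7, a lipid-binding protein of radial glia, had 42.4 and 20.1 CPM against 29.3 to 89.5 (adjusted p = 0.328, edgeR). Olig1 had 8.48 and 7.30 CPM against 9.76 to 30.9 (adjusted p = 0.124, edgeR). Sox2, a factor of both stem cells and progenitors, had 5 and 7 counts in Q20 NPC, within the range of 2 to 7 in the other libraries. Each of the 29 genes of the list had a count in Q20 NPC, and they summed to 347.7 and 295.8 CPM against 342 to 628 in the others. Many rest on single counts, such as Pax6 with 1 and 0, while Vim (16 and 14), Fabp7 (20 and 11) and Ptprz1 (17 and 30 counts) were more firmly present.

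Among neural microRNAs, edgeR called 2 of 4 tested lower in Q20 NPC (1.36% of all tested genes), DESeq2 3 and limma with line as a correlated block 0. Mir181a-1 (chromosome 1, 137966455 to 137966541) had 67.8 and 53.0 CPM in Q20 NPC against 91.7 to 613, with a median of 240 (log2 -2.10 ± 0.60, adjusted p = 0.0432, edgeR). Mir9-1 (chromosome 3, 88215598 to 88215686) had 2.12 and 5.48 CPM against 11.9 to 45.0 (log2 -2.61 ± 0.66, adjusted p = 0.0185, edgeR). Mir181a-2 also had both Q20 libraries below all others, at 12.7 and 18.3 CPM against 26.8 to 141 (log2 -1.88 ± 0.65, adjusted p = 0.114 in edgeR and 0.0386 in DESeq2). Mir9-3, whose mature product is that of Mir9-1, had 31.8 and 31.0 CPM within the 14.6 to 36.6 of the others (adjusted p = 0.607, edgeR), and the difference between copies was not tested. The Mir9-1 hairpin shares 13.3% of its 30-base stretches with Mir9-2 and C130071C03Rik, so reads could be split among copies, and Mir181a-1 lies in an exon of A430106G13Rik.

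Mirlet7c-1 (chromosome 16, 77599657 to 77599750) had 4.24 and 11.0 CPM in Q20 NPC and 18.3 to 64.7 in the others (log2 -2.29 ± 0.62, adjusted p = 0.0284, edgeR). It was the only let-7 gene tested of 12 in the list. Together these summed to 10.6 and 16.4 CPM in Q20 NPC against 22.9 to 104. Mir16-1, a microRNA that restrains the cell cycle (chromosome 14, 61631880 to 61631972, in an exon of Dleu2), had 6.36 and 3.65 CPM against 14.6 to 36.7 (log2 -2.28 ± 0.59, adjusted p = 0.0213, edgeR). All 6 lower genes lost the call with line as a correlated block in limma, with adjusted p between 0.401 and 0.598, and when either Q20 library was left out. With 1 mean per line, where the spread comes from within lines, all 6 were called (adjusted p 3.09e-05 to 0.0149, edgeR), and the log2 differences in limma were -3.05 for Tnc to -1.84 for Mir181a-1. The 11 region genes, Mir302b, Mir293, Snord123 and Igf2bp1 stayed called in every alternative that gave them a value, but 10 of these 15 passed the filter only through Q20 NPC.

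Markers of other cell types were too sparse for the test, with 0 fibroblast and 0 glial genes tested and 1 each of the neuron and the endoderm and mesoderm lists, neither called. Fibroblast mRNAs, checked because the mESC were grown on feeders, summed to 23.3 and 5.48 CPM in Q20 NPC against 1.99 to 19.7, and fibroblast microRNAs had 0 and 2 counts. Glial mRNAs summed to 36.0 and 21.9 CPM against 0 to 34.7 with a median of 2.70, the Q111 libraries being the high ones (34.7 and 29.3 CPM). All 7 glial genes with a count had a higher pooled rate in Q20 NPC. For Aqp4, S100b, Sox10 and Aldh1l1, however, this rests on 1 Q20 count each. The part of glial genes in the results was not tested. Neuron mRNAs summed to 55.1 and 27.4 CPM against 19.7 to 57.7, and endoderm and mesoderm mRNAs to 12.7 and 16.4 CPM against 2.81 to 35.8. Of the neuron genes, 8 had a higher pooled rate in Q20 NPC and 4 a lower one. Map2, with a lower rate, held 139 of the 164 neuron counts in the other libraries. Among general small RNA classes, 0 of 15 histone genes, 0 of 5 ribosomal protein genes, 0 of 19 mitochondrial genes, 0 of 11 Snora genes and 0 of 44 unnamed snoRNAs outside the region were called. The lists with 0 calls held 110 tested genes in all, including the imprinted genes, with 0 called by edgeR, DESeq2 or limma and 11 at an unadjusted p under 0.05. Over all 441 tested genes edgeR called 24, and 78 had an unadjusted p under 0.05.

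Levels in Q20 NPC were then set beside Q20 mESC, on a scaling common to all 24 libraries. A set was defined without any Q20 library as genes with a mean of at least 20 CPM in the other mESC and at most 3 counts in the other NPC. It held 11 genes, of which 10 had counts in both Q20 NPC libraries and Mir183 had 0. The 3 genes of the Dlk1-Dio3 region (Mir341, Gm24564, Mir127) stood at 37.5% to 46.2% of their Q20 mESC level, with a median of 41.0%. The 8 genes elsewhere stood at 0% to 28.8%, with a median of 5.65%, and Mir302b was the highest of them and Mir293 at 6.87%. Among called genes outside this set the separation did not hold, since region genes ran from 11.1% (Gm25854) to 83.4% (Gm23736) and Igf2bp1 elsewhere stood at 68.9%.

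**Figure D5:**
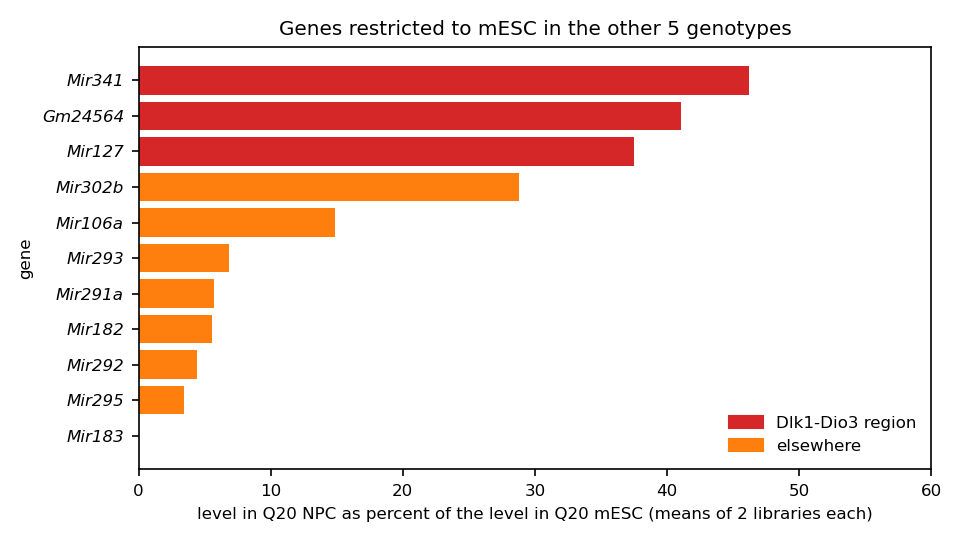
Mean level in Q20 NPC as a percent of the mean level in Q20 mESC (2 libraries each) for 11 genes restricted to mESC in the other 5 genotypes. The 3 genes of the Dlk1-Dio3 region reach 37.5% to 46.2% and the 8 elsewhere 0% to 28.8%, while other region genes outside this set ran from 11.1% to 83.4%.

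The reverse set of 10 genes, restricted to NPC in the other lines, stood in Q20 NPC at 8.85% to 75.9% of the level in the other NPC, with a median of 28.9%. The lowest was Tnc, and 7 of the 10 were below 50%. Genes were picked for a high mean in the other NPC, the group these percents are taken of, so the choice favours low percents. Of the 10, 4 are genes already called lower, so the set is not separate support. Ptprz1, a receptor phosphatase of progenitors, was the highest, at 38.2 CPM in Q20 NPC against 50.4 CPM in the others on this scaling.

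An interaction term over the 24 libraries tested whether the log2 difference of Q20 from the other lines changed between mESC and NPC. Such a difference is a ratio, so it can be large where the other NPC are near 0 CPM. Of 904 genes tested, 22 (2.43%) differed, 21 (2.32%) with the higher log2 difference in NPC and 1 (0.111%) the other way. The count was 10 or 14 with 1 Q20 mESC library left out and 13 without Q20 NPC replicate 2. In mESC, Mir293 overlapped between Q20 (1181 and 1383 CPM) and the other lines (775 to 2139 CPM), and its interaction had an adjusted p of 7.61e-08 (edgeR). In CPM the gap could be wider in mESC, as for Gm22981, with means of 2324 against 726 there and 420 against 10.9 in NPC. Mir302b was already higher in Q20 mESC, at 738 and 752 CPM against 2.09 to 127 in the other mESC. On this scaling it stood at 213 to 216 CPM in Q20 NPC, above every other mESC library. The Dlk1-Dio3 region was also higher in Q20 mESC, summing to 13061 and 12785 CPM against 2240 to 8357 with a median of 5184. Rian, at 3191 and 3351 CPM in Q20 mESC against 382 to 1948, had an interaction adjusted p of 0.0764 (edgeR), and Snord123 had 0.0606. The mESC and NPC of a line share their origin, so line and differentiation cannot be told apart.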

How the data were processed

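Per the labels, total RNA from mouse mESC and NPC was sequenced as 50-base single-end reads. The deposited table holds raw counts per gene (55335 genes, 24 columns), not normalized by the authors. Per the submitters' processing notes CASAVA 1.8, STAR, HTSeq and GRCm38.p6 were used. Trimming, strand and handling of multiply mapped reads are not given in the sources used here. Columns headed Q89 (4) were taken as the Q92 samples, since the labels give 89 repeats for that line. Identifiers were matched to GENCODE M21 (GRCm38) for 55154 genes, and 57 of 25027120 counts were left unmatched.

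Counts of the 12 NPC libraries were fitted in 2 classes, Q20 and all others (10 residual degrees of freedom), with edgeR 4.0.16 in R 4.3.3 (glmQLFit, glmQLFTest, TMM). filterByExpr required a count of 10 and a total of 15, and tested genes held 97.6% of NPC counts. CPM are counts per TMM-scaled library total times 1e+06. The depth sets a floor of 3 counts at 4.58 to 9.47 CPM. Intervals and floors cover counting error only, since reads without molecular identifiers are not independent molecules. The interaction used all 24 libraries in 4 classes. Alternatives were other scalings and filters, DESeq2 1.42.0, limma 3.58.1 with line as a correlated block, 1 mean per line, a replicate block, and leaving out libraries or lines. The fits were tested on simulated counts. Named genes had an adjusted p under 0.05, an absolute log2 of at least 1, a mean of at least 10 CPM and both Q20 libraries outside the others, at most 12 per direction, or belonged to a list. The comparison, lists and rule were chosen with earlier results of these data known.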

Additional observations from a re-analysis of the deposited data

Results flagged for a closer look

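For 13 of the 24 genes called in Q20 NPC, the Q20 log2 difference from the other lines was larger in NPC than in mESC. This was by the interaction test (edgeR's quasi-likelihood test, Benjamini-Hochberg adjusted over 904 genes). Over all 904 genes 22 (2.43%) were called. The 24 were selected for their Q20 difference in NPC, which is part of the interaction, so the 13 are not separate support. Most of the 13 also passed the NPC filter on low counts only through Q20 NPC. Among ES cell microRNAs the adjusted p was 0.0352 for Mir302b and 7.61e-08 for Mir293. Among Dlk1-Dio3 microRNAs it was 4.96e-06 for Mir341 and 9.95e-05 for Mir409. For the snoRNAs of the region the adjusted p was 0.000477 for Gm25856 and for Gm24564, 0.00148 for Gm23787 and 0.00362 for Gm23736. It was 0.00995 for Gm22981 and for Gm25854, 0.00999 for AF357341 and 0.0196 for AF357428. Igf2bp1 had an adjusted p of 3.32e-05. In each of these genes both Q20 NPC libraries lay above all 10 other NPC libraries. Of the 6 genes lower in Q20 NPC, 5 had 0 counts in Q20 mESC, so the test says little about a difference between cell types for these. Mir16-1 had 0.687 CPM in Q20 mESC and 7.67 CPM in the other mESC, and its interaction log2 was 0.62 ± 1.32 (SE, adjusted p = 0.961, edgeR).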

How the results depend on the processing

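No called gene changed direction in NPC under any alternative that gave it a value. For the interaction only the counts of calls were followed. Its calls lower in NPC numbered 1 in the main fit, 0 with library totals and 4 with DESeq2. Of the 24 called genes, 15 were called in every alternative that gave them a value, all of them higher in Q20 NPC, and 0 of the 6 lower genes were. With no filter on low counts 55 genes were called (51 higher, 4 lower), and with a filter on the mean count 13 of 252 (10 higher, 3 lower). With line as a correlated block in limma (within-line correlation 0.453) 15 were called, all higher, and with 1 mean per line 80 (53 higher, 27 lower). With both Q92 libraries left out there were 41. Leaving out 1 library gave 15 to 29 calls, the fewest without Q20 replicate 2 and 16 without Q20 replicate 1. The interaction gave 10 to 25 calls with 1 library left out, namely 10 without Q20 mESC replicate 2, 14 without Q20 mESC replicate 1 and 13 without Q20 NPC replicate 2.

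Same-numbered NPC libraries did not deviate together in most of 15 pairs of lines (5 above 0.1, range -0.0756 to 0.391), so the number was not taken as a pairing. A replicate block gave 23 calls, and 26 in the interaction. With library totals as the scaling, the ES microRNA sum in Q20 NPC moved from 425.8 to 424.0 CPM and the region snoRNA sum from 3559 to 3543 CPM. With DESeq2 size factors these were 411.3 and 3437 CPM, and the region sum moved from 5085 to 4912 CPM. These shifts are small but exceed the spread between the Q20 libraries, which is very narrow.

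With 2 libraries from 1 line, a line effect and a genotype effect cannot be told apart. Most microRNAs and all pluripotency mRNAs were below the filter and entered the NPC test only in the alternative without it, which shared 17 of its 55 calls with the 24.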

Other observations

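Genes below the level for testing within NPC showed further counts found in Q20 NPC alone or nearly so, as values chosen after they were seen. Zdbf2, an imprinted gene, had 24 counts in the Q20 NPC libraries and 0 in the 10 other NPC libraries, with Q20 mESC at 12.0 CPM and other mESC at 4.18 to 18.5 CPM. Its Q20 log2 difference was larger in NPC than in mESC (adjusted p = 2.60e-05, edgeR interaction). Mir127, a maternally expressed microRNA of the Dlk1-Dio3 region, had 26 counts against 1 in NPC (adjusted p = 0.000477, edgeR interaction), and Mir292 had 28 against 0 (adjusted p = 0.000931, edgeR interaction). The 1 interaction call in the other direction was Sema6a, a semaphorin gene (adjusted p = 0.0352, edgeR).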
